A study of Mus musculus with 12 samples.

Results

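Transcripts of the EGFR receptor family and its ligands were followed across sorted cell populations of mouse glioblastoma (GBM). The 10 genes were taken by symbol from the deposited expression table, which holds 18180 genes, and comprise the receptors *Egfr*, *Erbb2*, *Erbb3* and *Erbb4* and the ligands *Tgfa*, *Hbegf*, *Areg*, *Ereg*, *Btc* and *Egf*. All 10 were in the table, which the authors had limited to genes above a minimum level in at least 3 samples.

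Tumors arose in the brains of mice carrying a conditional (Cre/Lox) human *EGFR* transgene, constitutive loss of *Cdkn2a* and a conditional luciferase reporter, after a lentivirus encoding Cre was injected into the striatum of adult animals. The mixed strain background is labelled C57Bl/6J, 129S4, FVBN/J and Balb/cJ, and the study's methods name SJL as well. From each of 3 end-stage tumors (T3, T4 and T5), EGFR+ cells were sorted with an antibody to PDGFR into PDGFRA+ and PDGFRA- cells and with an antibody to Galectin-1 into GAL1+ and GAL1- cells, which gave 12 bulk RNAseq libraries and 3 per population. The study's Results call the sorted cells CD45-, whereas its description of the sort names no CD45 antibody. All 4 populations share the genotype, and the ages and sexes of these 3 animals were not used here. The sorted PDGFRA+ and GAL1+ cells were compared in the study to ask how signaling downstream of EGFR differs between them.

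The 4 receptors are tyrosine kinases that pair with one another when a ligand binds. Egfr binds Tgfa, Hbegf, Areg, Ereg, Btc and Egf, Erbb4 binds some of these and the neuregulins, Erbb3 binds neuregulins but has little kinase activity of its own, and Erbb2 has no known ligand and acts as a partner. Ligands are made as membrane proteins and shed by proteases, and amplification of *EGFR* is among the most frequent alterations of human GBM.

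Levels are given as log2 CPM, the log2 of reads scaled to the library total, and a difference of 1 is a change of 2 fold. Recovered read totals lay between 10768492 and 18522549 in PDGFRA+, between 9851175 and 16516049 in PDGFRA-, between 13788453 and 17486645 in GAL1+ and between 21728280 and 24117541 in GAL1- libraries. The 3 reads taken as the floor corresponded to a log2 CPM of −2.99 in the deepest and −1.44 in the shallowest library. Of the 10 members, 9 were above 3 reads in all 12 libraries and *Btc* was above it in 10. Differences were estimated with limma with the tumor as a block, adjusted over all 18180 genes, and called at an adjusted p under 0.05. Reads were aligned to the mouse genome, so the part of the *Egfr* reads that came from the human transgene cannot be told apart. The same holds for *Tgfa*, since the study prepared Cre lentiviruses with and without a TGFa sequence and does not say which started these tumors.

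Transcripts of the sort antigens were read first, as a description with no test. *Pdgfra* had log2 CPM of 10.81, 10.13 and 9.95 in PDGFRA+ and of 10.11, 8.62 and 7.36 in PDGFRA- cells of T3, T4 and T5, so it was higher in PDGFRA+ cells within each tumor while PDGFRA- cells of T3 exceeded PDGFRA+ cells of T5. It was at 10.81, 10.34 and 10.49 in GAL1- cells, above PDGFRA+ cells in T4 and T5, and at 8.95, 6.74 and 7.05 in GAL1+ cells. *Lgals1*, which encodes Galectin-1, was at 7.95, 7.64 and 7.41 in GAL1+ and at 6.05, 6.28 and 6.81 in GAL1- cells, without overlap. In PDGFRA+ cells it was at 6.41, 6.85 and 7.25, and in PDGFRA- cells at 6.99, 6.98 and 7.34.

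*Egfr*, the founding receptor of the family, had log2 CPM of 10.65, 10.46 and 10.42 in GAL1- cells of T3, T4 and T5, and of 10.50, 10.11 and 9.93 in PDGFRA+ cells. In PDGFRA- cells it was at 10.18, 10.02 and 8.16, and in GAL1+ cells at 9.02, 8.53 and 7.68. GAL1+ cells of all 3 tumors lay below every GAL1- and every PDGFRA+ library, while the T5 library of PDGFRA- cells fell inside the GAL1+ range and the other 2 did not. Relative to GAL1- cells, the log2 fold change in GAL1+ cells was −2.10 (adjusted p = 0.000461, standard error 0.32), lower in 3 of 3 tumors, or 4.28 fold more in GAL1- cells. PDGFRA+ cells exceeded GAL1+ cells by 1.77 (standard error 0.32, adjusted p = 0.0037), also in 3 of 3 tumors. In bulk samples, fewer cells that express a gene and less RNA of it per cell cannot be told apart.

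The order of *Egfr* levels ran from GAL1- (10.51 ± 0.12, SD, n = 3) through PDGFRA+ (10.18 ± 0.29) and PDGFRA- (9.45 ± 1.12) to GAL1+ cells (8.41 ± 0.68). The first 2 neighbours did not differ beyond the threshold (PDGFRA+ minus GAL1- cells −0.33 on the log2 scale, 95% interval −1.05 to 0.40, adjusted p = 0.649, lower in 3 of 3 tumors), nor did PDGFRA+ and PDGFRA- cells (0.73, 95% interval 0.01 to 1.45, adjusted p = 0.423, higher in 3 of 3). The latter became 0.21 without T5 and 0.26 without the T5 library of PDGFRA- cells. Between PDGFRA- and GAL1+ cells the difference was 1.04 (adjusted p = 0.0493, higher in 3 of 3 tumors), called in 7 of 15 alternative settings with adjusted p from 0.00476 to 0.291. The adjusted p was 0.22 without T3, 0.291 without T4, 0.192 without the T4 library of PDGFRA- cells, 0.143 without that of GAL1+ cells and 0.215 without the tumor block. PDGFRA- cells were below GAL1- cells, the log2 difference being −1.06 (adjusted p = 0.0425, lower in 3 of 3 tumors), called in 8 of 15 alternatives. It came to −0.45 (adjusted p = 0.162) without T5 and −0.59 (0.133) without the T5 library of PDGFRA- cells, and the adjusted p was 0.102 without T3, 0.0559 without the T4 library of GAL1+ cells and 0.2 without the block.

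*Erbb4*, a receptor for neuregulins and for some of the EGFR ligands, had log2 CPM of 6.40, 6.36 and 6.62 in GAL1- cells of T3, T4 and T5, and of 6.18, 5.93 and 6.20 in PDGFRA+ cells. It was at 5.61, 5.24 and 5.12 in PDGFRA- cells and at 4.61, 2.60 and 3.76 in GAL1+ cells. The 3 GAL1+ libraries were below all others, and the PDGFRA- libraries below all PDGFRA+ and GAL1- libraries. The fold change of GAL1+ over GAL1- cells was the most negative of the 10 members in that comparison, at −2.81 on the log2 scale (adjusted p = 0.000101, standard error 0.32, lower in 3 of 3 tumors). PDGFRA+ cells exceeded GAL1+ cells by 2.45 in 3 of 3 tumors (adjusted p = 0.00147, standard error 0.32). GAL1+ cells of T4 had 75.5 recovered reads of *Erbb4*, the fewest of any library.

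Population means of *Erbb4* followed the order of *Egfr*, from 6.46 ± 0.14 (SD, n = 3) in GAL1- through 6.10 ± 0.15 in PDGFRA+ and 5.32 ± 0.26 in PDGFRA- to 3.66 ± 1.01 in GAL1+ cells. PDGFRA- cells exceeded GAL1+ cells by 1.67 (adjusted p = 0.0122, higher in 3 of 3 tumors), or by 1.18 (adjusted p = 0.0993) without T4. They were below GAL1- cells, the log2 difference being −1.14 (adjusted p = 0.0327, lower in 3 of 3), called in 10 of 15 alternatives. Its adjusted p was 0.101 without the block, 0.052 without T3, 0.323 without T5 and 0.137 without the T5 library of PDGFRA- cells. The higher neighbours did not overlap and were not called. PDGFRA+ minus GAL1- cells gave −0.36 (95% interval −1.08 to 0.36, adjusted p = 0.621), lower in 3 of 3 tumors, with an adjusted p of 0.0243 when only these 2 groups were fitted and from 0.375 to 0.879 in the other alternatives. PDGFRA+ minus PDGFRA- cells gave 0.78 (0.06 to 1.50, adjusted p = 0.397), higher in 3 of 3.

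*Erbb3*, the receptor with little kinase activity, had log2 CPM of 6.21, 7.15 and 6.40 in GAL1- and of 6.16, 5.96 and 5.89 in PDGFRA+ cells of T3, T4 and T5. It was at 5.42, 8.76 and 5.30 in PDGFRA- cells and at 4.57, 7.63 and 3.92 in GAL1+ cells. The 2 highest libraries were thus PDGFRA- and GAL1+ cells of T4, and the 2 lowest were GAL1+ cells of T5 and T3. Within each tumor, PDGFRA- exceeded GAL1+ cells, by 0.85, 1.13 and 1.39 in T3, T4 and T5, and this log2 fold change of 1.12 was not called (95% interval −0.40 to 2.65, adjusted p = 0.256). Its adjusted p was 0.0208 when only these 2 groups were fitted and from 0.0877 to 0.72 in the other alternatives, and its value was 0.45 without the T4 library of PDGFRA- and 1.79 without that of GAL1+ cells. PDGFRA+ were below GAL1- cells in 3 of 3 tumors without overlap (−0.58, 95% interval −2.11 to 0.94, adjusted p = 0.697), by −0.28 without T4. GAL1+ cells were lower than GAL1- cells in T3 and T5 and higher in T4, and the log2 fold change of −1.22 was not called (95% interval −2.74 to 0.31, adjusted p = 0.151). Without T4 it was −2.07 (adjusted p = 0.000391), and without the T4 library of GAL1+ cells alone it was −1.88 (adjusted p = 0.0491). Without T4, *Erbb3* was also called higher in PDGFRA+ than in GAL1+ cells (1.78, adjusted p = 0.0112) and lower in PDGFRA- than in GAL1- cells (−0.95, adjusted p = 0.0249).

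*Erbb2*, the partner receptor without a known ligand, had log2 CPM of 1.71, 3.14 and 2.68 in GAL1- cells of T3, T4 and T5 and 2.05, 2.54 and 1.94 in PDGFRA+ cells. PDGFRA- cells had 1.64, 5.25 and 1.07, and GAL1+ cells 2.11, 4.09 and 1.25. It rested on 22 to 360.5 recovered reads, and its 2 highest libraries were the same PDGFRA- and GAL1+ libraries of T4. The populations overlapped, with a log2 fold change of −0.02 for GAL1+ over GAL1- cells (95% interval −1.47 to 1.42, adjusted p = 0.977), or 0.68 without T5. For PDGFRA+ over PDGFRA- cells it was −0.48 for *Erbb2* (adjusted p = 0.801) and −0.49 for *Erbb3* (adjusted p = 0.806), and without the T4 library of PDGFRA- cells these became 0.39 and 0.18, and without T4 0.64 and 0.66.

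Other genes were high in the same 2 libraries. *Lgi4*, which encodes a secreted protein needed for myelination of peripheral nerves, had log2 CPM of 8.83 in PDGFRA- and 7.69 in GAL1+ cells of T4, with 6.59 in GAL1- and 5.03 in PDGFRA+ cells of that tumor and at most 4.14 in any library of T3 and T5. *Dhh*, a hedgehog ligand known from Schwann cells, was at 7.49 and 6.26 in these 2 libraries and at most 5.77 in the others, and *Foxd3*, a transcription factor of the neural crest, was at 5.11 and 3.89 and at most 3.16. These 3 genes were chosen after their values were seen, and their part in the levels of *Erbb3* and *Erbb2* was not tested. The 8 markers of mature oligodendrocytes had summed levels of 905.9, 1258 and 1166 CPM in PDGFRA- and of 279.9, 365 and 208 CPM in GAL1+ cells of T3, T4 and T5. Their sums were 507.7, 784.8 and 697.3 CPM in GAL1- and 480.8, 370.8 and 439.3 CPM in PDGFRA+ cells, so T4 was the highest tumor in 3 of 4 populations. The part of these markers was not tested either.

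**Figure D1:**
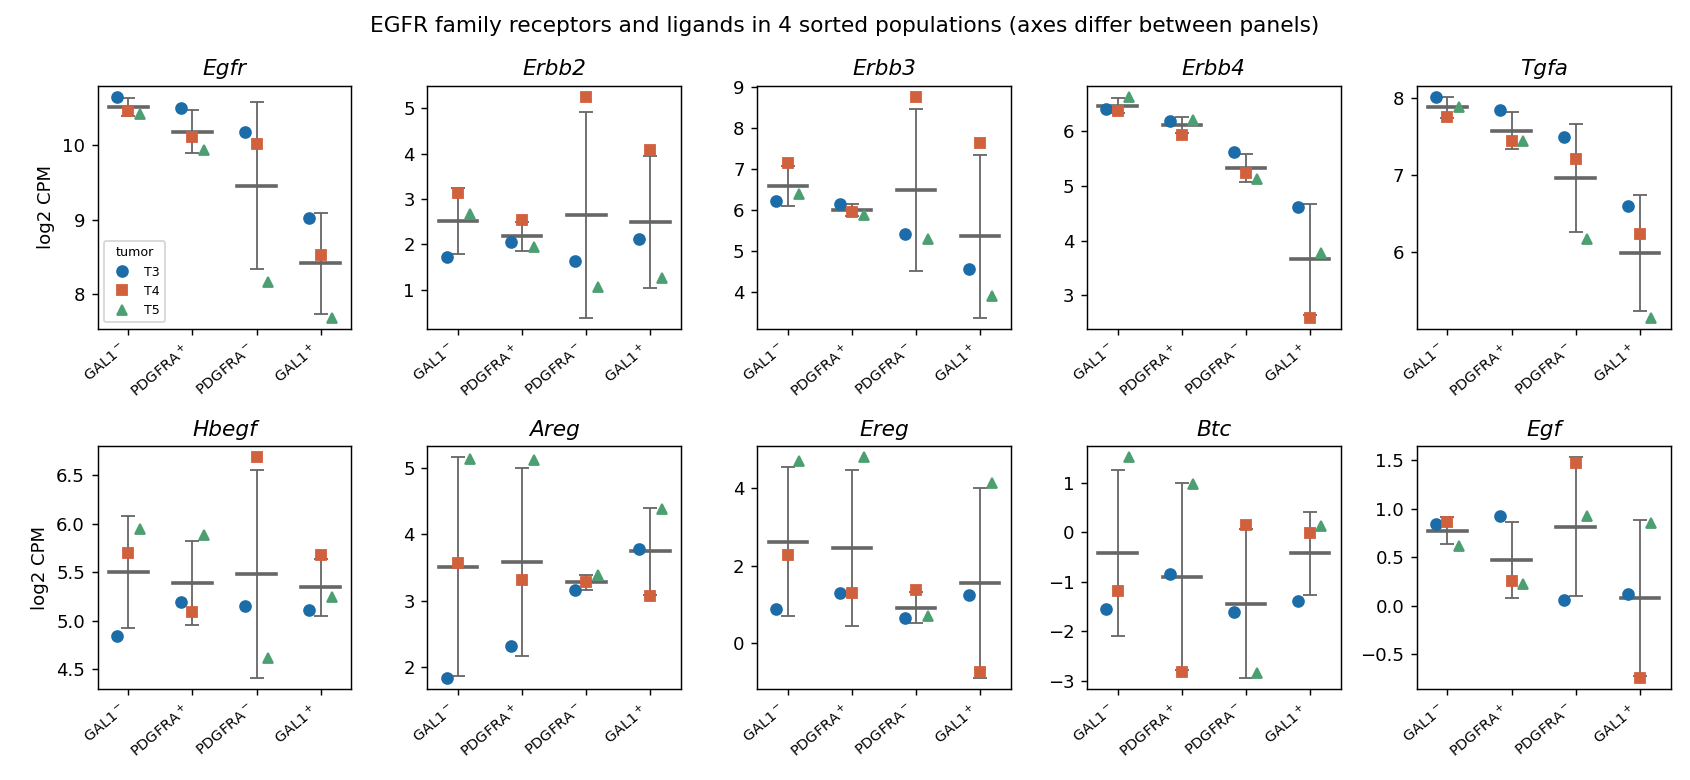
Log2 CPM (vertical axes, which differ between panels) of the 10 members in GAL1-, PDGFRA+, PDGFRA- and GAL1+ cells, with 1 point per tumor and the mean and SD of 3 tumors as bars. *Egfr*, *Erbb4* and *Tgfa* are lowest on average in GAL1+ cells, as are *Erbb3*, *Hbegf* and *Egf*. *Erbb2* and *Erbb3* are highest in PDGFRA- cells of T4, and *Ereg* is at 4.14 or above in 3 of the 4 libraries of T5.

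Among the ligands, *Tgfa*, which binds Egfr, had log2 CPM of 8.01, 7.74 and 7.87 in GAL1- and of 7.85, 7.44 and 7.43 in PDGFRA+ cells of T3, T4 and T5. It was at 7.49, 7.21 and 6.17 in PDGFRA- cells and at 6.60, 6.23 and 5.15 in GAL1+ cells. All GAL1+ libraries lay below all GAL1- and PDGFRA+ libraries, and PDGFRA- cells of T5 again fell inside the GAL1+ range. On the log2 scale, GAL1+ minus GAL1- cells gave −1.88 (adjusted p = 0.000246, standard error 0.26, lower in 3 of 3 tumors) and PDGFRA+ minus GAL1+ cells 1.58 (adjusted p = 0.00251, standard error 0.26, higher in 3 of 3).

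The mean levels of *Tgfa* had the same order as those of *Egfr*, from 7.88 ± 0.13 (SD, n = 3) for GAL1- through 7.57 ± 0.24 for PDGFRA+ and 6.96 ± 0.70 for PDGFRA- to 5.99 ± 0.75 for GAL1+ cells. PDGFRA- cells exceeded GAL1+ cells by 0.96 (adjusted p = 0.0321, higher in 3 of 3 tumors), called in 9 of 15 alternatives. The adjusted p was 0.159 without T3, 0.17 without T4, 0.121 without the T4 library of PDGFRA- cells, 0.0767 without that of GAL1+ cells and 0.16 without the block. They were below GAL1- cells, the log2 difference being −0.92 (adjusted p = 0.0323, lower in 3 of 3), called in 8 of 15 alternatives. It became −0.53 (adjusted p = 0.055) without T5 and −0.69 (0.146) without the T5 library of PDGFRA- cells, and the adjusted p was 0.094 without T3, 0.0529 without T4 and 0.17 without the block. The other neighbours were not called. Between PDGFRA+ and GAL1- cells the log2 fold change was −0.30 (95% interval −0.88 to 0.28, adjusted p = 0.608), lower in 3 of 3 tumors, with an adjusted p of 0.0451 when only these 2 groups were fitted and from 0.325 to 0.89 in the other alternatives. Between PDGFRA+ and PDGFRA- cells it was 0.62 (0.04 to 1.20, adjusted p = 0.403, higher in 3 of 3), or 0.29 without T5 and 0.39 without the T5 library of PDGFRA- cells.

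*Hbegf*, a heparin-binding ligand of Egfr and Erbb4, had log2 CPM of 4.85, 5.70 and 5.95 in GAL1- cells of T3, T4 and T5 and 5.19, 5.09 and 5.88 in PDGFRA+ cells. PDGFRA- cells had 5.15, 6.69 and 4.62, and GAL1+ cells 5.11, 5.68 and 5.25. The highest and the lowest of the 12 libraries were both PDGFRA- cells, of T4 and T5, and the 4 populations overlapped. Means lay between 5.34 and 5.50, the closest of the 10 members. The log2 fold change was −0.16 for GAL1+ over GAL1- cells (95% interval −1.12 to 0.81, adjusted p = 0.774) and −0.10 for PDGFRA+ over PDGFRA- cells (−1.06 to 0.87, adjusted p = 0.949), so differences near 2 fold lower were within both intervals. The first became 0.12 without T5, and the second 0.65 without T4 and 0.47 without the T4 library of PDGFRA- cells.

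Within a library, *Hbegf* minus *Tgfa* in log2 CPM was −3.16, −2.04 and −1.92 in GAL1- cells of T3, T4 and T5 and −2.66, −2.35 and −1.55 in PDGFRA+ cells. It was −2.35, −0.52 and −1.55 in PDGFRA- and −1.49, −0.56 and 0.09 in GAL1+ cells. The GAL1+ library had the highest difference of its tumor in T3 and T5, and the PDGFRA- library in T4 with the GAL1+ library next to it. These are differences between 2 genes that do not adjust for gene length, and no test was made of them.

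*Areg* and *Ereg*, which encode amphiregulin and epiregulin, had their highest levels in T5. In T3, T4 and T5, *Areg* was at 1.84, 3.57 and 5.13 log2 CPM in GAL1- cells and 2.32, 3.31 and 5.12 in PDGFRA+ cells, with 3.16, 3.29 and 3.39 for PDGFRA- and 3.78, 3.07 and 4.38 for GAL1+ cells. *Ereg* was at 0.89, 2.26 and 4.71 in GAL1- cells and 1.28, 1.29 and 4.80 in PDGFRA+ cells, with 0.65, 1.37 and 0.70 for PDGFRA- and 1.25, −0.75 and 4.14 for GAL1+ cells. The T5 library was the highest of its population for *Areg* in 4 of 4 populations and for *Ereg* in 3 of 4, where *Ereg* was at 4.14 or above while no library of T3 or T4 exceeded 2.26. PDGFRA- cells of T5 were the exception, with 17 recovered reads of *Ereg* beside 505 in PDGFRA+ cells of that tumor.

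Neither ligand passed the test in any of the 6 comparisons. The log2 fold change of *Areg* was 0.23 for GAL1+ over GAL1- cells (95% interval −1.0 to 1.46, adjusted p = 0.735) and 0.31 for PDGFRA+ over PDGFRA- cells (−0.92 to 1.53, adjusted p = 0.855). The first became −0.62 without T3, and the second −0.41 without T5 and −0.27 without the T5 library of PDGFRA- cells. That of *Ereg* was −1.07 (−3.05 to 0.91, adjusted p = 0.322) and 1.55 (−0.43 to 3.53, adjusted p = 0.518). Its first value was −0.10 without the T4 library of GAL1+ cells or without T4, and −1.79 without T3. The second was 0.28 without the T5 library of PDGFRA- cells and 0.27 without T5, and 2.42 without the T4 library of PDGFRA- cells and 2.37 without T4. For PDGFRA- over GAL1- cells *Ereg* had a log2 fold change of −1.71 (adjusted p = 0.182), lower in 3 of 3 tumors and called in 1 of 15 alternatives, with voom weights (−2.70, adjusted p = 0.0333). It was −2.58 (adjusted p = 0.0502) without the T4 library of PDGFRA- cells, −0.44 (0.703) without their T5 library and −0.56 (0.745) without T5. Each tumor is 1 animal, so the differences between tumors were not tested. In the RefSeq gene order of GRCm38.p6, *Epgn*, *Ereg*, *Areg* and *Btc* follow one another on chromosome 5. *Btc* was also highest in T5 within the GAL1- and PDGFRA+ populations, with 70 and 35 recovered reads, and had 1 read in PDGFRA- cells of T5. In GAL1+ cells T5 and T4 were nearly level, with 13 and 12 reads (log2 CPM 0.12 and −0.01).

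*Btc* and *Egf*, both high-affinity ligands of Egfr, had few reads. *Btc* (betacellulin) had 1 to 70 recovered reads and log2 CPM from −2.84 to 1.51, and did not exceed the 3-read floor in PDGFRA- cells of T5 and PDGFRA+ cells of T4. *Egf* had 7 to 49.5 reads and log2 CPM from −0.75 to 1.47, the lowest in GAL1+ and the highest in PDGFRA- cells of T4. Neither was called in any comparison.

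Set beside one another per kilobase of exon, *Egfr* had the highest level of the 10 members in all libraries other than GAL1+ cells of T4, where *Erbb3* was higher. In GAL1- cells *Egfr* was at 129.1 ± 11.1 CPM per kilobase (SD, n = 3), followed by *Tgfa* at 36.3 ± 3.36, *Erbb3* at 16.7 ± 6.05, *Areg* at 13.8 ± 13.4, *Hbegf* at 9.84 ± 3.51, *Erbb4* at 7.16 ± 0.712, *Ereg* at 2.65 ± 3.21 and *Erbb2* at 1.18 ± 0.533. *Btc* and *Egf* came last at 0.268 ± 0.314 and 0.152 ± 0.0139. Neighbours from *Erbb3* to *Erbb4*, from *Ereg* to *Erbb2* and from *Btc* to *Egf* lay within their SDs of each other. In GAL1+ cells *Egfr* was at 32.3 ± 13.9, *Erbb3* at 13.1 ± 17.1, *Areg* at 11.8 ± 5.14, *Tgfa* at 10.7 ± 4.78 and *Hbegf* at 8.52 ± 1.82, and neighbours from *Erbb3* to *Hbegf* lay within their SDs.

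Counted over the members, limma called 3 of 10 between GAL1+ and GAL1- cells, all lower in GAL1+ cells, where 58.2% of all genes were called, 28.9% higher and 29.3% lower. Between PDGFRA+ and GAL1+ cells it called 3 of 10, all higher in PDGFRA+ cells, against 38% of all genes (20.9% higher and 17% lower). These shares are near or below those over all genes, so the counts do not set the family apart. PDGFRA- and GAL1- cells also gave 3 of 10, all lower in PDGFRA- cells, against 23.1% of all genes and 6.88% in that direction. PDGFRA- and GAL1+ cells gave 3 of 10, all higher in PDGFRA- cells, against 20.1% and 13.2% in that direction. In each case the 3 members were *Egfr*, *Erbb4* and *Tgfa*. No member was called between PDGFRA+ and PDGFRA- cells, where limma called 0 genes (0%) and 2137 had an unadjusted p under 0.05, nor between PDGFRA+ and GAL1- cells, where 8.27% of all genes were called. Each population enters 3 comparisons, so these counts are not independent.

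**Figure D2:**
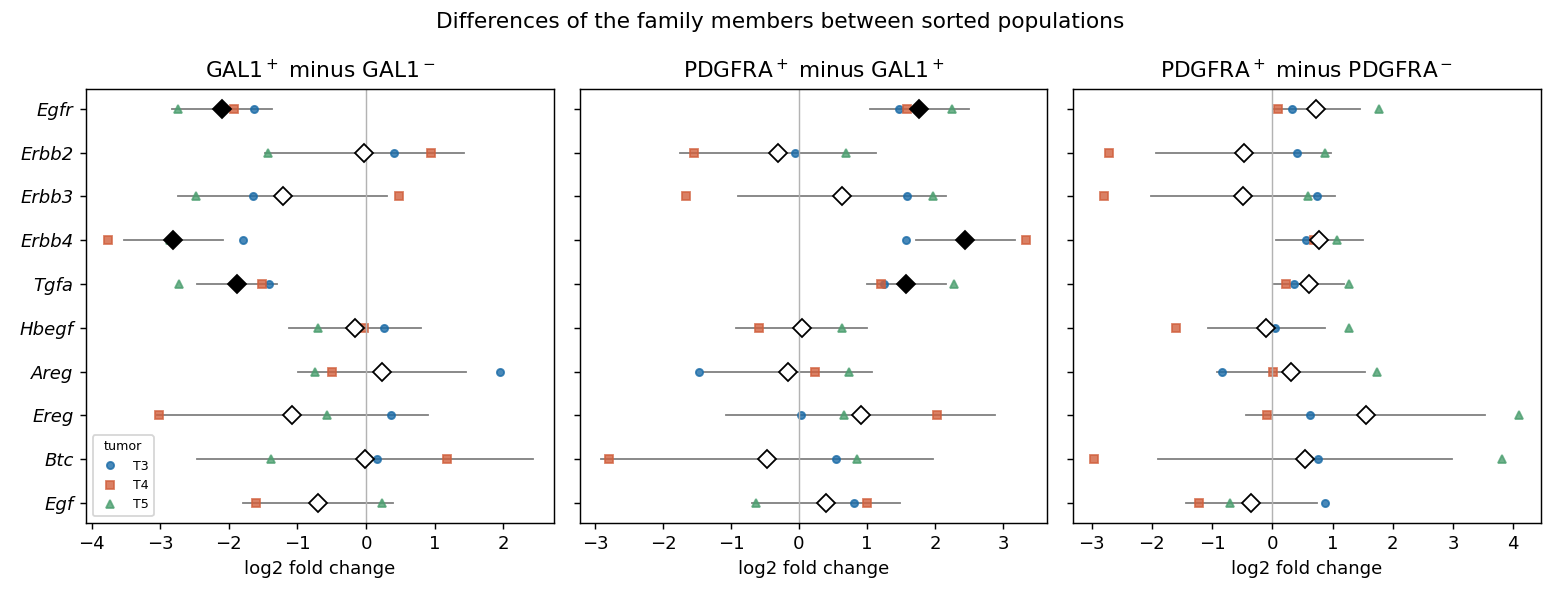
Log2 fold changes (horizontal axes) of the 10 members in 3 comparisons, with the limma estimate as a diamond (filled where the adjusted p was under 0.05), its 95% interval as a line and the difference within each tumor as a small symbol. *Egfr*, *Erbb4* and *Tgfa* lie on 1 side of 0 in all 3 tumors in the comparisons with GAL1+ cells, while for PDGFRA+ minus PDGFRA- cells the T4 values of *Erbb2* and *Erbb3* lie below 0 and those of T3 and T5 above it.

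Markers of other cell types moved with these differences. *Ptprc*, which encodes CD45, had log2 CPM of 8.21, 8.74 and 9.0 in GAL1+ cells of T3, T4 and T5 and of 3.70, 5.18 and 4.94 in GAL1- cells. All 12 of 12 pan-leukocyte markers were called higher in GAL1+ than in GAL1- cells, beside 28.9% of all genes, and higher in GAL1+ than in PDGFRA+ cells, beside 17%. The latter count of 12 was 0 without T3, 2 without T5, 3 without the T4 library of GAL1+ cells and 2 without the block. Their summed level was 4248, 5578 and 5884 CPM in GAL1+ cells and 95.87, 279 and 210.9 CPM in GAL1- cells. It was 946.8, 2410 and 2228 CPM in PDGFRA+ cells and 1609, 983.8 and 4322 CPM in PDGFRA- cells, so the T5 library in which *Egfr* and *Tgfa* were low was also the PDGFRA- library with the highest sum. In T3 and T5, PDGFRA- cells had the higher sum and lower *Egfr*, *Erbb4* and *Tgfa* than PDGFRA+ cells. In T4 they had the lower sum, and these 3 genes were lower as well. *Egfr* was at 10.02 beside 10.11, *Erbb4* at 5.24 beside 5.93 and *Tgfa* at 7.21 beside 7.44. *Csf1r* was the most abundant of these markers, from 982.9 to 1519 CPM in GAL1+ and from 13.87 to 62.2 CPM in GAL1- cells, and none of the 12 was at or under 3 reads throughout a population. The 4 libraries with the highest sums were the 4 with the lowest *Egfr*, the lowest *Tgfa* and the lowest *Erbb4*. The part of leukocyte RNA in these differences was not tested.

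**Figure D3:**
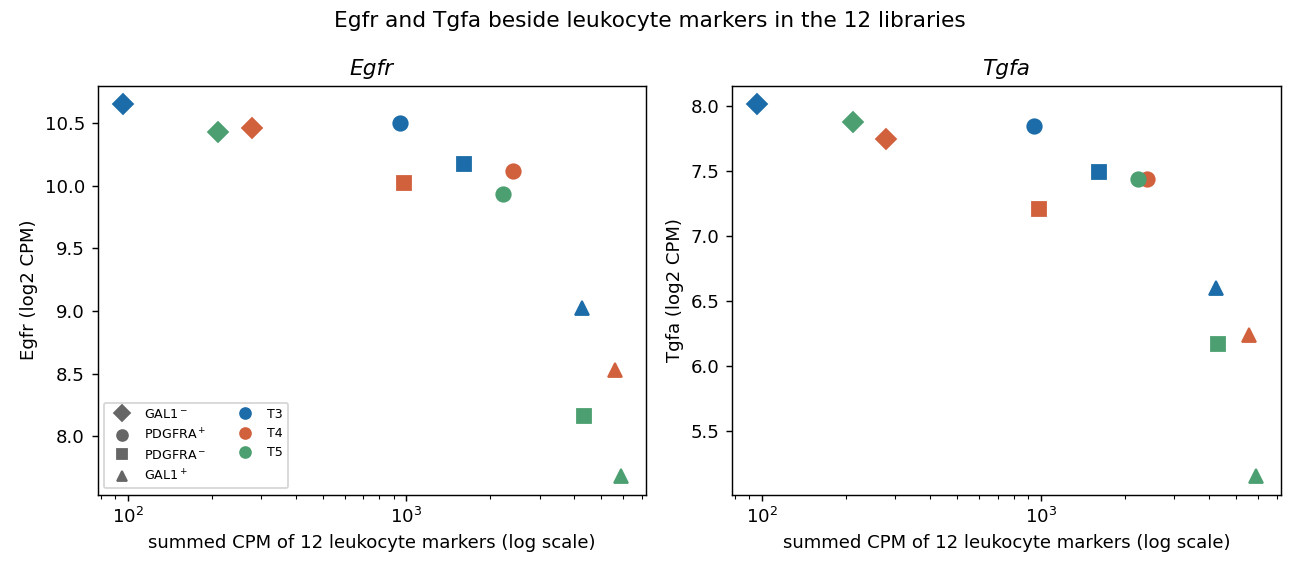
*Egfr* and *Tgfa* (vertical axes, log2 CPM) against the summed CPM of 12 pan-leukocyte markers (horizontal axes, log scale) in the 12 libraries, with the population shown by shape and the tumor by color. The 3 GAL1+ libraries and PDGFRA- cells of T5, with sums from 4248 to 5884 CPM, have *Egfr* at or below 9.02 and *Tgfa* at or below 6.60.

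All 9 of 9 macrophage markers were called higher in GAL1+ than in GAL1- cells, with sums of 2235, 2452 and 2876 CPM against 15.68, 37.44 and 52.91 CPM and *Lyz2* the most abundant, at 908.3 to 1254 CPM in GAL1+ cells. Microglia markers gave 9 of 9 (646.1 to 1082 CPM against 55.7 to 89.11 CPM, led by *Cx3cr1*), endothelial markers 9 of 9 (316.6 to 388.6 CPM against 39.75 to 87.22 CPM, led by *Flt1*) and mural cell markers 6 of 6 (150.3 to 252.7 CPM against 30.06 to 49.18 CPM, led by *Rgs5*). Over all genes 28.9% were called higher in GAL1+ cells and 29.3% lower. Of the neutrophil markers 3 of 6 measured were called higher, led by *Csf3r*. Of the T and NK cell markers, led by *Cd4*, 2 of 8 were (1 without T5), a share near that of all genes, and their median was −0.34. Markers of oligodendrocyte progenitors went the other way, as did *Egfr*, *Erbb4* and *Tgfa*. All 7 of 7 were called lower in GAL1+ than in GAL1- cells and higher in PDGFRA+ than in GAL1+ cells, and their sum was 4231, 3370 and 3960 CPM in GAL1- cells of T3, T4 and T5 and 1265, 717.4 and 379.5 CPM in GAL1+ cells. *Pdgfra*, which encodes the antigen of the other sort, was the most abundant of these 7. Its level in PDGFRA+ cells is therefore not independent of how they were sorted. All 8 of 8 mature oligodendrocyte markers were also called lower in GAL1+ cells (208 to 365 CPM against 507.7 to 784.8 CPM, 5 without T5). So were 3 of 7 astrocyte and 3 of 7 measured neuron markers, beside the 29.3% of all genes, which does not set these 2 lists apart. The astrocyte markers had a median log2 fold change of −0.60. Their sums were 591.5, 604.3 and 683.6 CPM in GAL1- and 289.8, 329.8 and 189.7 CPM in GAL1+ cells of T3, T4 and T5. *Slc1a2*, the most abundant of them, was at 228.5 to 275.5 CPM in GAL1- and 28.38 to 72.22 CPM in GAL1+ cells. Of the neuron markers *Nefl* led in T5 only. In GAL1- cells it made up 56.13 of 100.5 CPM there, beside 2.423 of 30.12 CPM in T3 and 1.778 of 37.34 CPM in T4.

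PDGFRA+ cells differed from GAL1+ cells in *Egfr*, *Erbb4* and *Tgfa*. In that comparison 8 of 9 macrophage (median log2 fold change −1.83), 4 of 9 microglia (−1.55) and 4 of 6 neutrophil markers (−1.36) were called lower in PDGFRA+ cells. Over all genes 17% were called lower. Of the T and NK cell markers 1 of 8 was called lower, a share below that of all genes, and their median was 0.74, in the other direction. The first 3 counts were 0, 1 and 0 without T3, 3, 2 and 1 without the T4 library of GAL1+ cells, 2, 1 and 0 without the block, 7, 7 and 2 without T4 and 4, 3 and 2 without T5. The microglia count was 8 with 2 groups in the fit and without the T4 library of PDGFRA- cells, and 7 without their T5 library. The T and NK cell count was 0 without T3 or without the block. It was 2 with 2 groups in the fit, with quantile normalization and with median centring. limma called 0 of 9 endothelial (−0.43) and 0 of 6 mural markers (−0.62), and at most 2 of either list in an alternative. Called higher in PDGFRA+ cells were 3 of 8 mature oligodendrocyte (1 without T5), 3 of 7 astrocyte and 2 of 7 neuron markers, beside 20.9% of all genes.

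Markers also differed in the other comparisons. Relative to GAL1- cells, 12 of 12 pan-leukocyte (median log2 fold change 3.46), 8 of 9 macrophage (4.50), 7 of 9 microglia (2.72), 9 of 9 endothelial (1.97) and 6 of 6 mural markers (2.11) were called higher in PDGFRA- cells, beside 16.2% of all genes. The microglia count was 4 without T3 and 3 without T5, the endothelial count 2 without the block, and the mural count 3 without T3, 3 when only these 2 groups were fitted and 2 without the block. Of the mature oligodendrocyte markers 3 of 8 were called higher (0 without T5, without the T5 library of PDGFRA- cells or without the block, 1 without T3, 2 without T4 and 2 without the T4 library of PDGFRA- cells). Of the progenitor markers 2 of 7 were called lower, beside 6.88% of all genes, a count of 0 without T5, 1 without the T5 library of PDGFRA- cells and 0 without the block. These 7 include *Pdgfra*, whose level in PDGFRA- cells is not independent of how they were sorted.

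Relative to GAL1+ cells, 8 of 8 mature oligodendrocyte markers (2.39) and 5 of 7 progenitor markers (1.72) were called higher in PDGFRA- cells, beside 13.2% of all genes. Called lower were 3 of 12 pan-leukocyte, 6 of 9 microglia and 4 of 9 macrophage markers, beside 6.91% of all genes. Each of these 5 counts was 0 without T4. The progenitor count was 3 without the T4 library of PDGFRA- cells and 3 without the block. The pan-leukocyte count ran from 0 to 12 over the alternatives, the microglia count from 0 to 9 and the macrophage count from 0 to 5, and without T3 they were 0, 0 and 1. Without the T4 library of PDGFRA- cells these 3 counts were 0, 3 and 0, without that of GAL1+ cells 0, 1 and 0, without the T5 library of PDGFRA- cells 12, 9 and 5, and without T5 6, 8 and 4.

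Between PDGFRA+ and GAL1- cells, where *Egfr*, *Erbb4* and *Tgfa* were lower in 3 of 3 tumors and not called, 12 of 12 pan-leukocyte (3.42), 8 of 9 microglia (2.89), 7 of 9 macrophage (4.35), 9 of 9 endothelial (2.24) and 4 of 6 mural markers (1.83) were called higher in PDGFRA+ cells, beside 8.26% of all genes. Each of these counts was 0 without T3, and the endothelial and mural counts were 2 and 2 without the block. The part of these markers in the members' differences was not tested.

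Genes most like the 3 called members were those with the highest Pearson correlation of log2 CPM over the 12 libraries, which come from 3 tumors, among 13007 genes with a mean of at least 1. For *Egfr* these were *Fut10* (r = 0.996), *Schip1* (0.995) and *Clstn1* (0.995). *Erbb4* was most like *Scn3a* (0.993), *Pcdh15* (0.993) and *Nol4* (0.992), and *Tgfa* was most like *Ntrk2* (0.992), *Nlgn3* (0.991) and *Stk32a* (0.991).

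The members' promoters were read from RefSeq (GRCm38.p6), where 7 of 10 members matched. The 250 bases before the transcription start of the 3 members called together are shown in the direction of transcription, since these 3 had the same order of populations. The motifs searched, on both strands, were GGGCGG (held by 32.7% of all 32851 promoters of this length), TGACGTCA (held by 1.55%), TGANTCA (held by 6.75%) and TATAAA (held by 12.4%), and capitals mark the matches. *Egfr* lies at chr11:16751953-16752202 (+ strand), *Tgfa* at chr6:86194972-86195221 (+ strand) and *Erbb4* at chr1:69108060-69108309 (− strand), all upstream of the first exon.
Egfr: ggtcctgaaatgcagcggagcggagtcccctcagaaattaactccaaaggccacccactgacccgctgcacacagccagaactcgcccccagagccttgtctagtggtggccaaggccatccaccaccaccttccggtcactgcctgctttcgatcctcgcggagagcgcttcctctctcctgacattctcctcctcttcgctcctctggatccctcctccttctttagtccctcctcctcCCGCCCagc
Tgfa: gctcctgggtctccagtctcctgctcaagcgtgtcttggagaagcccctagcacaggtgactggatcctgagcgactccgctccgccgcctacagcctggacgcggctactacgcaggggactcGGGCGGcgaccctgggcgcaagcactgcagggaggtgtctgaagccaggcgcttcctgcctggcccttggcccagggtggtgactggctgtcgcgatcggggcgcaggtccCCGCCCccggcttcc
Erbb4: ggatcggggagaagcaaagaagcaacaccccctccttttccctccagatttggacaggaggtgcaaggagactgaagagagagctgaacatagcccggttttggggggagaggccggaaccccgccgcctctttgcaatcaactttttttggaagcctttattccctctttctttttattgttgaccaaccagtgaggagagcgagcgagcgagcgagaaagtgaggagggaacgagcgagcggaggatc
GGGCGG, the letters of a GC box, was found 2 times before *Tgfa*, 1 time before *Egfr* and not before *Erbb4*, and the other motifs in none of the 3. Bases G and C made up 60.8% of this stretch in *Egfr*, 69.2% in *Tgfa* and 54% in *Erbb4*, beside a median of 52.4% over all promoters. Before *Areg* there was 1 match of GGGCGG, 1 match of TGACGTCA and 1 match of TATAAA. A match describes the letters and is not evidence of binding.

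The other ligands of the family are the neuregulins and epigen, of which 3 of 5 listed genes were measured. *Nrg2* fell in GAL1+ relative to GAL1- cells (log2 fold change −1.45, adjusted p = 0.000627, standard error 0.24) and was higher in PDGFRA+ than in GAL1+ cells (1.22, adjusted p = 0.00468), though none of the 3 was called there without T3. *Nrg1*, a ligand of Erbb3 and Erbb4, was at 4.03 ± 0.37 in GAL1- and 3.68 ± 0.62 in GAL1+ cells (SD, n = 3), a log2 fold change of −0.35 (adjusted p = 0.0934). *Nrg4*, a ligand of Erbb4, had 36, 14 and 14 recovered reads in GAL1+ cells of T3, T4 and T5 and 0, 2 and 1 in GAL1- cells, a difference that was called (adjusted p = 0.000873) and for which no fold is given because the GAL1- values are at or under the floor.

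Of 9 genes that process the ligands, 5 were called higher and 3 lower in GAL1+ than in GAL1- cells, beside 28.9% and 29.3% of all genes, and the median log2 fold change was 0.37 beside −0.03 over all genes. *Rhbdf2* and *Furin* were higher in GAL1+ cells, by 4.19 (standard error 0.41, adjusted p = 5.5e-05) and 2.28 (standard error 0.21, adjusted p = 4.62e-05). *Rhbdf2* encodes a rhomboid-like protein that escorts the sheddase Adam17, and *Furin* a protease that matures sheddases. *Bace1*, a protease that cleaves neuregulin 1, and *Rhbdf1*, the relative of *Rhbdf2*, were lower in GAL1+ cells, with log2 fold changes of −1.81 (standard error 0.30, adjusted p = 0.000716) and −1.10 (standard error 0.37, adjusted p = 0.0283). Between PDGFRA+ and GAL1+ cells, 1 was called higher (*Bace1*, 1.39) and 5 lower in PDGFRA+ cells, among them *Rhbdf2* (−1.53) and *Furin* (−1.17), beside 20.9% and 17% of all genes, and the median was −0.32 beside 0.01 over all genes. The count of 8 was 5 without T3 and 5 without T5, and that of 6 was 2 without T3.

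Receptor inhibitors and genes of receptor turnover gave 8 of 14 higher and 2 lower in GAL1+ than in GAL1- cells (median 0.57), where 28.9% of all genes were higher and 29.3% lower. *Ptpn1*, a phosphatase that acts on receptor tyrosine kinases, was higher by 1.64 (standard error 0.22, adjusted p = 0.000215) and *Ubash3b* by 1.39 (standard error 0.18, adjusted p = 0.000192). *Socs5*, which promotes Egfr degradation, and *Lrig2*, a transmembrane protein of the LRIG family, had log2 fold changes of −1.35 (adjusted p = 0.00179) and −0.60 (adjusted p = 0.00659). In PDGFRA+ relative to GAL1+ cells 2 of 14 were called higher (*Socs5*, 1.07, and *Lrig2*, 0.42) and 7 lower, with *Ptpn1* (−0.87) and the phosphatase gene *Ptprj* (−0.82) the lowest, beside 20.9% and 17% of all genes, and the median was −0.41. That count of 9 was 0 without T3, 4 without the T4 library of GAL1+ cells and 3 without the block.

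Adaptors and first effectors of the receptors were called in both directions, 12 of 32 measured higher and 11 lower in GAL1+ than in GAL1- cells, with a median of −0.11. Over all genes 28.9% were higher and 29.3% lower, so these counts do not set the adaptors apart. *Vav1* and *Plcg2*, signaling genes known for their expression in blood cells, were higher by 4.82 (standard error 0.52, adjusted p = 7.54e-05) and 4.24 (standard error 0.43, adjusted p = 5.9e-05). *Shc3* and *Shc2*, the neural members of the Shc adaptor family, had log2 fold changes of −2.35 (standard error 0.33, adjusted p = 0.000268) and −2.20 (standard error 0.27, adjusted p = 0.000142). Between PDGFRA+ and GAL1+ cells 7 were called higher, with *Shc3* at 2.04 and *Shc2* at 1.68, and 10 lower, with *Vav1* at −1.56 and *Plcg2* at −1.55, beside 20.9% and 17% of all genes, and the median was 0.07. That count of 17 was 8 without the tumor block, 7 without T3 and 11 without the T4 library of GAL1+ cells.

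Of the ERK cascade 5 of 10 were called between GAL1+ and GAL1- cells, below the 58.2% of all genes, 4 higher and 1 lower in GAL1+ cells (median 0.09), with the kinase genes *Mapk3* (1.46, standard error 0.14, adjusted p = 5.05e-05) and *Braf* (0.86, adjusted p = 0.000807) higher and *Araf* (−0.50, adjusted p = 0.0125) lower. In PDGFRA+ relative to GAL1+ cells 0 were called higher and 4 lower (median −0.07), beside 20.9% and 17% of all genes, with *Mapk3* at −0.96 and *Braf* at −0.55. That count of 4 was 1 without T3, 1 without T4, 2 without T5, 1 without the T4 library of GAL1+ cells and 2 without the block. Of 15 genes that ERK signaling is known to induce, many of which feed back on it, 10 were called lower and 2 higher in GAL1+ than in GAL1- cells, beside 29.3% and 28.9% of all genes (median −0.81 beside −0.03). *Etv4*, an ETS transcription factor, and *Spry1*, a Sprouty inhibitor, had log2 fold changes of −2.19 (standard error 0.28, adjusted p = 0.000182) and −2.08 (standard error 0.26, adjusted p = 0.00016). *Dusp5*, an ERK phosphatase, and *Ier3*, an immediate early gene, were higher in GAL1+ cells by 1.90 (standard error 0.24, adjusted p = 0.000145) and 1.20 (standard error 0.27, adjusted p = 0.00367). In PDGFRA+ relative to GAL1+ cells 8 of 15 were called higher and 1 lower (median 0.55), beside 20.9% and 17% of all genes, with *Spry1* at 1.84, *Etv4* at 1.84 and *Dusp5* at −0.93. That count of 9 was 3 without the block. Between PDGFRA+ and PDGFRA- cells no gene of these lists was called, where 0 of all 18180 genes were, so this does not set the lists apart. The leukocyte sums differed between the populations compared here, with their part in these counts not tested.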

How the data were processed

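The authors trimmed reads with fastp, aligned them to mm39 with STAR, counted exons with featureCounts, kept genes above a minimum level, and deposited TMM-scaled log2 CPM from voom. The build of the gene order and promoters here (RefSeq, GRCm38.p6) is another one, and exon lengths are from GENCODE vM21. The strand setting of the counting is not given in the sources used here. Reads were recovered from the log2 values, of which 41.3% to 59.2% per library came out whole within 0.01 reads. The authors counted multi-mapping reads as fractions. All 12 columns were mapped to samples, and 0 were left unmapped. Group and tumor came from the sample titles, and the deviations from the population means correlated in all 18 pairs of libraries of the same tumor (mean r 0.486, from 0.14 to 0.662). limma 3.58.1 (R 4.3.3) fitted the 4 groups and the tumor as a block to all 12 libraries, with a moderated test (eBayes with trend) and Benjamini-Hochberg adjustment over 18180 genes. It was tested on simulated data, and the outcome of that test is not reported here. Figures and tables were made with Python 3.11.15, pandas 2.3.3 and matplotlib 3.10.9. The members and lists were chosen with earlier results of these data known. Named pathway genes are up to 2 called higher and 2 called lower per list with the largest fold change in 2 comparisons, and lists of 5 or fewer in full. The lists cover other ligands, ligand processing, inhibitors and turnover, adaptors, the ERK cascade and its targets, and markers of leukocytes, microglia, macrophages, neutrophils, T and NK cells, endothelium, mural cells, neurons, astrocytes, oligodendrocyte progenitors and mature oligodendrocytes. *Nrdc* was matched by its older symbol *Nrd1*, and listed genes without a match were not analysed here. Alternatives changed the block, the groups in the fit, the trend, the prior, the weights, the pseudocount (1), the scaling, the filter and the libraries. The floor of 3 reads covers counting error only. An allele of the mice and the most abundant gene of a marker list are not reported here.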

Additional observations from a re-analysis of the deposited data

How the results depend on the processing

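Over 15 alternatives, the 12 called pairs of member and comparison kept their direction, and 6 of them, those of *Egfr*, *Erbb4* and *Tgfa* for GAL1+ against GAL1- and for PDGFRA+ against GAL1+ cells, were called in each. The other 6, for PDGFRA- against GAL1- or GAL1+ cells, were lost in at least 1. Of 48 pairs not called, 32 changed sign in at least 1 alternative and 7 gained a call. The 3 alternatives that leave out a single library were chosen after seeing the data. Without the tumor block (unpaired), called genes numbered 3154 for PDGFRA+ against GAL1+ (6900 with it), 1444 for PDGFRA- against GAL1- (4200), 725 for PDGFRA- against GAL1+ (3652) and 612 for PDGFRA+ against GAL1- cells (1504), and called members 0 of 3 for PDGFRA- against GAL1- and 1 of 3 for PDGFRA- against GAL1+ cells. With 2 groups in the fit, called genes were 1328, 1893 and 3386 in the last 3 of these comparisons, and called members 1 for PDGFRA- against GAL1- and 2, beside 0, for PDGFRA+ against GAL1- cells. Without the trend, members were 0 for PDGFRA- against GAL1- and 1 for PDGFRA- against GAL1+ cells. Leaving out a tumor or a library gave 0 to 5 called genes for PDGFRA+ against PDGFRA-, 2110 to 7887 for PDGFRA+ against GAL1+, 920 to 6021 (0 to 3 members) for PDGFRA- against GAL1-, 0 to 5837 (0 to 3 members) for PDGFRA- against GAL1+ and 0 to 1920 for PDGFRA+ against GAL1- cells. It also turned log2 fold changes that were not called. For PDGFRA+ over PDGFRA- cells these ran from −1.15 to 0.64 (*Erbb2*), −1.10 to 0.66 (*Erbb3*), −0.78 to 0.65 (*Hbegf*) and −0.41 to 0.88 (*Areg*), and for GAL1+ over GAL1- cells from −0.51 to 0.68 (*Erbb2*), −0.36 to 0.12 (*Hbegf*) and −0.62 to 0.72 (*Areg*). *Erbb2* in the latter was 0.27 with voom weights, 0.0215 with a pseudocount of 1 and 0.0206 with median centring, beside −0.02. The share of called genes that were higher moved from 55.1% to 40.8% (PDGFRA+ against GAL1+) and from 65.6% to 46.9% (PDGFRA- against GAL1+) with median centring, and from 70.2% to 51.4%, or 47.2% with quantile normalization (PDGFRA- against GAL1-). In this order of comparisons it was 70.2%, 85.4% and 94.7% without the block, and up to 85.9% and 95.7% without T3 and 97.9% without T5. Median centring shifted the median of all genes by −0.16, −0.14 and −0.11 for PDGFRA+ against GAL1+, PDGFRA- against GAL1+ and PDGFRA+ against GAL1- cells, and quantile normalization by −0.14 for PDGFRA- and −0.13 for PDGFRA+ against GAL1- cells. The causes of these changes were not tested.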
